A study of Mus musculus with 6 samples.

Results

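Collagens are the extracellular matrix proteins built from chains that wind into a helix, and they were examined here as a family in the retina of Vldlr knockout mice and of wild-type mice. A collagen gene was any gene whose symbol in the platform's annotation was Col, a number, the letter a and a number. This gave 41 genes read by 91 of the 45281 probes of an Illumina mouse BeadChip, on which 19057 genes were named. Of these, 22 genes had at least 1 probe bright enough to test (32 of the 19921 tested probes), and 19 genes had none. The study compared 3 Vldlr knockout samples with 3 wild-type samples, with 1 array per sample. The product of Vldlr is a receptor for very low density lipoprotein, and mice that lack it are known for vessels that grow abnormally from the retina towards the pigment epithelium. Both groups carry the same background strain entry (JAX), which names no strain, and the labels give neither an age nor a treatment. The source name is Jax WT for the wild-type samples and Vldlr KO for the knockout samples, so a shared strain is not stated. No label states whether each sample was a separate animal. The p-values set the difference between groups against the spread of these samples within groups, and that spread may be technical.

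Fibrillar collagens such as types I, II and V assemble into the fibrils of sclera, cornea, cartilage and vitreous. Basement membrane collagens, which are type IV with its relatives XV and XVIII, form or decorate the thin sheets under epithelia, around vessels and at the inner surface of the retina. The remaining collagens coat fibrils, span cell membranes, anchor epithelia or form fine networks. In the eye, collagen II with its partner collagen IX makes the fibrils of the vitreous. Collagen XVIII lies in the basement membranes of the inner limiting membrane, ciliary body, iris and pigment epithelium, and its C-terminal fragment endostatin is known to inhibit vessel growth. Collagen XVII is a membrane-spanning protein of hemidesmosomes, the junctions by which epithelia hold on to their basement membrane.

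Values are log2 intensities after background correction and normalization between arrays, and a change is the mean of the knockout arrays minus the mean of the wild-type arrays. The detected share of probes was between 41.3% and 46.3% per array, and the number of arrays limits the precision. Wild-type replicate 1 had a median correlation of 0.9711 with the other wild-type arrays and of 0.9773 with the knockout arrays, so it stood closer to the knockout arrays than to its own group over all probes. The brightest Vldlr probe had 10.16, 10.22 and 10.41 on the knockout arrays, against 11.31, 11.33 and 11.68 on the wild-type arrays, and fell by 1.17 (SE 0.179, adjusted p = 0.00946, limma) to 44.3% of wild-type. Vldlr probes ILMN_1218264 and ILMN_2515601 changed by -1.26 and -1.22 (adjusted p = 0.0265 and 0.0334, limma). The dimmer ILMN_1230923 and ILMN_2458671 changed by 0.23 and 0.02 and did not pass (adjusted p = 0.857 and 0.992, limma). The labels do not say which part of the gene is missing in the knockout, so the brightest probe may lie outside it. The photoreceptor markers checked the tissue label, since all 5 that had a probe were detected on all 6 arrays.

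Of the 32 tested collagen probes, 4 fell in the knockout samples and 0 rose at an adjusted p of 0.05 by limma. Over all tested probes, 1.53% fell and 0.653% rose by the same rule. The 4 probes belong to 3 genes. Col18a1 fell on both of its tested probes, Col17a1 on 1 of its 3 tested probes, and Col26a1 on its single tested probe. At an unadjusted p of 0.05, 14 collagen probes (43.8%) were lower and 3 (9.38%) higher, against 6.06% and 5.68% of all tested probes. For 14 of the 32 collagen probes (43.8%) every knockout array was below every wild-type array, against 8.84% of all tested probes. Col2a1, Col18a1, Col17a1 and Col9a1 each supplied more than 1 of the 14, which also include a Col4a6 probe detected on 0 knockout arrays. The opposite, every knockout array above every wild-type array, was seen for 1 collagen probe (3.12%), against 9.28% of all tested probes. The median change was -0.46 over the tested collagen probes and 0.03 over all tested probes. The family was chosen with earlier results of these data known, so these shares describe it and do not test it. These values describe whole tissue, in which fewer cells of a type and less RNA per cell cannot be told apart.

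**Figure D1:**
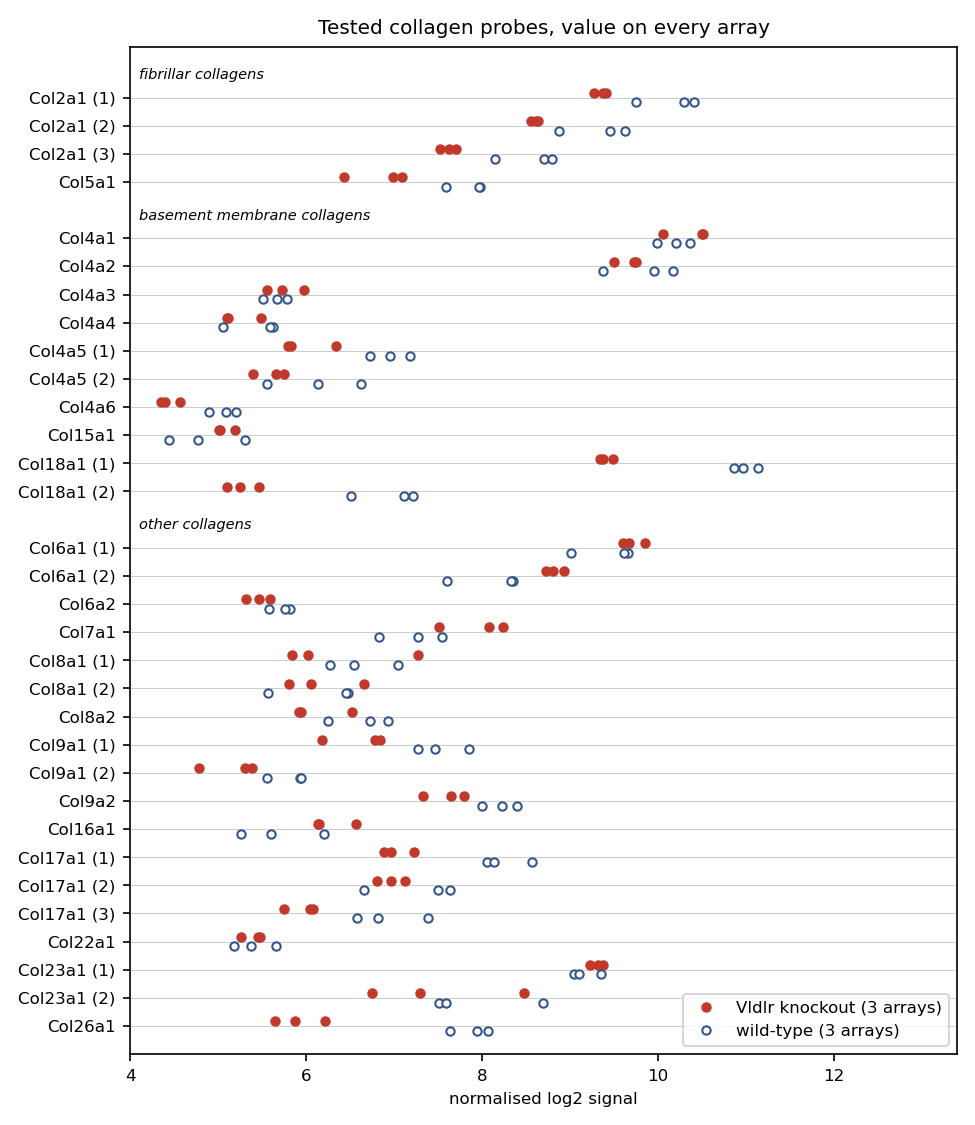
Log2 intensity (horizontal axis) of each of the 32 tested collagen probes on every array, with filled points for the 3 knockout arrays drawn above open points for the 3 wild-type arrays, and the probes grouped by collagen class. The knockout points of Col18a1, Col26a1 and the first Col17a1 probe lie apart from and below the wild-type points, while those of Col4a1 and Col4a2 overlap them.

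The promoter letters of the 2 genes the family is named for are shown because both fell. They are the 250 bases before each annotated start from RefSeq (GRCm38.p6), written on the gene's own strand with capitals marking the motifs searched. RefSeq lists 2 starts for Col18a1, at chr10:77113706-77113955 and chr10:77166531-77166780, both on the minus strand, and 1 for Col17a1 at chr19:47692043-47692292, also on the minus strand.
Col18a1, first window: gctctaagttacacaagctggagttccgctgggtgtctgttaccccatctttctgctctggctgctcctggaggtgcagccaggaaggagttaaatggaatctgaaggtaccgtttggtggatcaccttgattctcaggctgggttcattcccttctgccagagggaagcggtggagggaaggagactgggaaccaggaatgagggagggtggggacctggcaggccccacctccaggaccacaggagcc
Col18a1, second window: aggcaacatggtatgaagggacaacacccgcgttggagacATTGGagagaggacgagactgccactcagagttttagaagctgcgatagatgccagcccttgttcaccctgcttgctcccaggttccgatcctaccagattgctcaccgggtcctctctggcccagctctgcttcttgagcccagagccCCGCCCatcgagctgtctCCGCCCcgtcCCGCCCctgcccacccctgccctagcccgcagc
Col17a1: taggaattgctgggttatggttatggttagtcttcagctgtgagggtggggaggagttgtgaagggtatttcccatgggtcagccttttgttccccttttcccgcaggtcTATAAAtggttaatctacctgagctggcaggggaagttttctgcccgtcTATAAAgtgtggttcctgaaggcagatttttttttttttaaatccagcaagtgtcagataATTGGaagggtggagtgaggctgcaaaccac

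The motifs were the TATA box (TATAAA), the GC box (GGGCGG) and the CCAAT box (CCAAT), each searched on both strands, with no overlap between them. The first Col18a1 window held 0 of them, and its GC content was 57.6%. The second held 3 GC boxes and 1 CCAAT box at 62.0% GC. The Col17a1 window held 2 TATA boxes and 1 CCAAT box at 46.0% GC, so no motif is present in all 3 windows. Of all 32851 windows of this length, 12.4% held a TATA box, 32.7% a GC box and 33.8% a CCAAT box. Of the 36 windows of the 33 collagen genes that matched, 13.9% held a TATA box, 61.1% a GC box and 36.1% a CCAAT box. A match describes the letters and does not show that a factor binds there.

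Among the basement membrane collagens, all 8 genes were tested, with 10 of their 16 probes. Col18a1 was the gene that fell. Its probe ILMN_2735184 had 9.34, 9.37 and 9.49 on the knockout arrays, against 10.87, 11.14 and 10.97 on the wild-type arrays. All 3 knockout arrays lay below the lowest wild-type array. The means were 9.40 ± 0.0765 in knockout and 10.99 ± 0.136 in wild-type samples (SD, n = 3 each). The change was -1.59 (SE 0.164, 95% interval -1.96 to -1.22, adjusted p = 0.00102, limma), and knockout samples held 33.2% of the wild-type signal. In the authors' deposited intensities before any correction, the same probe read 594.6, 726.4 and 874 in knockout samples, against 1756.6, 2477 and 1986.5 in wild-type samples.

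The second Col18a1 probe, ILMN_2937542, had 5.46, 5.25 and 5.10 on the knockout arrays, against 6.51, 7.11 and 7.22 on the wild-type arrays. Its groups did not overlap either. It fell by 1.68 (SE 0.223, 95% interval -2.18 to -1.17, adjusted p = 0.00410), to 31.3% of the wild-type signal, so the 2 probes differ in their change by 0.08. Another Col18a1 probe was detected on 0 arrays. With the authors' background-subtracted table used without scaling between arrays, the changes were -1.59 and -2.22, and the adjusted p values 0.0551 and 0.0767 no longer passed. Without background correction the second, dimmer probe changed by -0.99 and still passed.

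None of the 6 type IV chains passed the threshold. Col4a1 and Col4a2 encode the chains of the network found in nearly all basement membranes, including those of retinal vessels. Col4a1 had 10.51, 10.50 and 10.06 on the knockout arrays, against 10.20, 10.36 and 9.99 on the wild-type arrays, with a change of 0.18 (SE 0.196, 95% interval -0.27 to 0.62, adjusted p = 0.770). Col4a2 had 9.50, 9.75 and 9.73 in knockout samples, against 9.38, 10.17 and 9.96 in wild-type samples, with a change of -0.18 (SE 0.226, 95% interval -0.69 to 0.33, adjusted p = 0.800). For both genes the groups overlapped, and the intervals do not reach the change of Col18a1.

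Col4a3, Col4a4 and Col4a5 chains form the network of kidney glomeruli and of some eye basement membranes, and their loss in people causes Alport syndrome. Col4a3 changed by 0.10 (adjusted p = 0.868) and Col4a4 by -0.19 (adjusted p = 0.771), neither of which passed. Col4a5 probe ILMN_2734755 had 6.34, 5.79 and 5.83 on the knockout arrays, against 7.18, 6.95 and 6.73 on the wild-type arrays. Its groups did not overlap, yet its change of -0.97 (SE 0.212) missed the threshold with an adjusted p of 0.0603, and without wild-type replicate 3 the adjusted p was 0.0469. The other Col4a5 probe overlapped between groups, with a change of -0.51 and an adjusted p of 0.502. Col4a6, which pairs with Col4a5 in other basement membranes, had 4.39, 4.57 and 4.35 on the knockout arrays, where it was not well above background on any array, against 4.90, 5.09 and 5.20 on the wild-type arrays. Its knockout level is a bound, at least 1.21-fold lower, with an adjusted p of 0.144. Such a bound sets the higher of the probe's own value and the lowest signal among detected probes on each dim array against the other group's mean.

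Col15a1 is the closest relative of Col18a1 and is known from the basement membranes of vessels and muscle. It had 5.02, 5.19 and 5.01 on the knockout arrays, against 4.44, 5.31 and 4.77 on the wild-type arrays, with a change of 0.24 (SE 0.231, adjusted p = 0.736). The groups overlapped. Over the 10 basement membrane probes, 2 fell, against 1.53% of all tested probes. Groups did not overlap on 4 with knockout lower and on 0 with knockout higher, against 8.84% and 9.28% of all tested probes. The 4 include the Col4a6 probe, which was detected only on wild-type arrays. The median change was -0.35 within a range of -1.68 to 0.24.

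**Figure D2:**
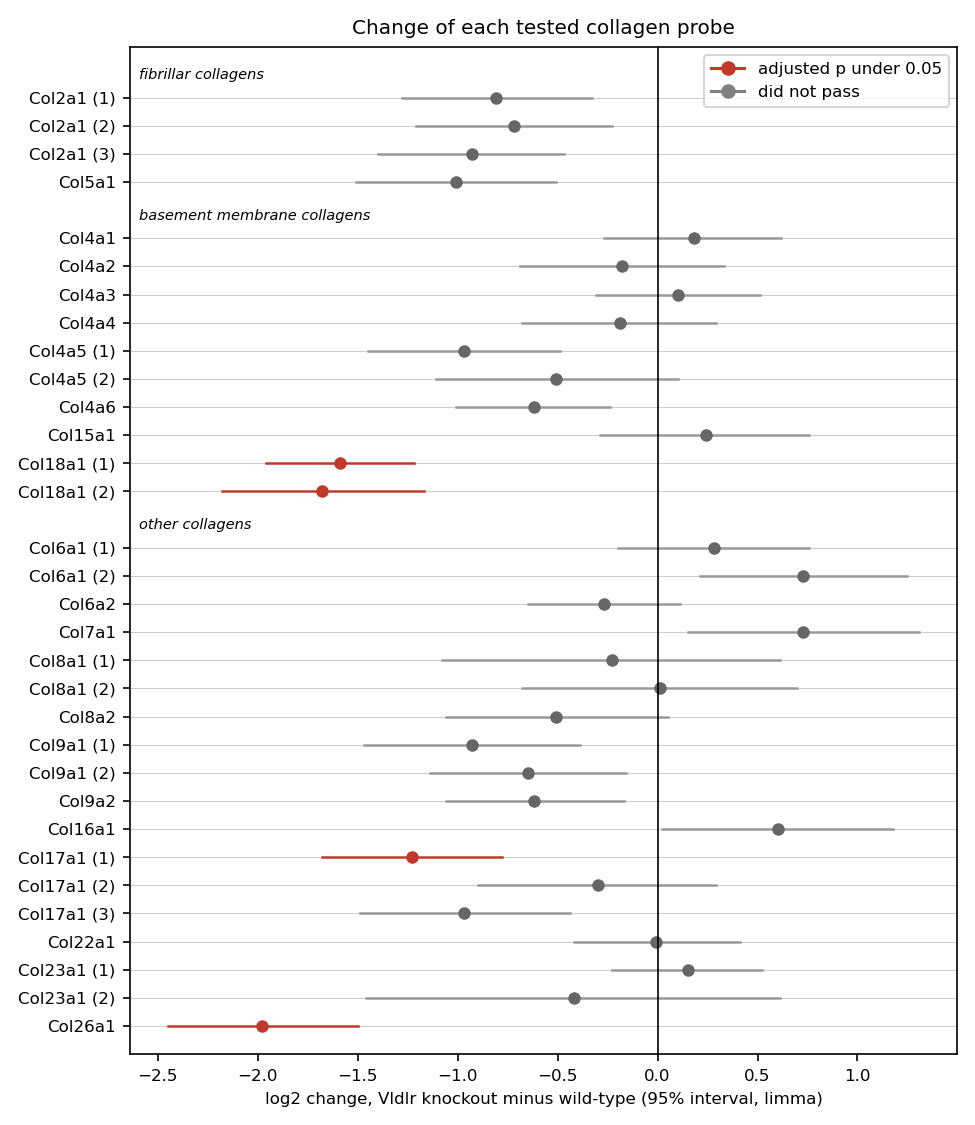
Log2 change, knockout minus wild-type, of each tested collagen probe (points) with its 95% interval from limma (lines), grouped as fibrillar, basement membrane and other collagens, with coloured points for an adjusted p under 0.05. The 4 coloured points are both Col18a1 probes, Col26a1 and 1 Col17a1 probe, between -1.98 and -1.23, and the remaining points lie between -1.01 and 0.73.

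Most fibrillar collagens were too dim to test. Of 11 genes with 27 probes, Col2a1 and Col5a1 were tested, with 4 probes. None of these passed the threshold, at changes between -1.01 and -0.72. Collagen II is the main fibril protein of vitreous and cartilage, and mutations in its gene cause Stickler syndrome in people. Probe ILMN_1246054 of Col2a1 had 9.27, 9.41 and 9.37 on the knockout arrays, against 9.75, 10.30 and 10.41 on the wild-type arrays. Its change was -0.81 (SE 0.207, adjusted p = 0.116). The other 2 Col2a1 probes changed by -0.72 (SE 0.216, adjusted p = 0.202) and -0.93 (SE 0.206, adjusted p = 0.0631). On all 3 probes every knockout array was below every wild-type array, and wild-type replicate 1 was the lowest wild-type array on each. Without that array the first probe changed by -1.01 with an adjusted p of 0.0466.

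Col5a1 encodes a chain of collagen V, which starts and limits the width of fibrils in cornea and skin. It had 7.09, 6.99 and 6.43 on the knockout arrays, against 7.98, 7.96 and 7.59 on the wild-type arrays. The groups did not overlap, and the change was -1.01 (SE 0.222, adjusted p = 0.0618). Without wild-type replicate 3 it was -1.15 with an adjusted p of 0.0448. Among the untested fibrillar genes, Col1a2, a chain of the main collagen of sclera and skin, was detected on 2 wild-type and 0 knockout arrays, at 4.70, 4.50 and 4.55 in knockout samples and 5.36, 5.13 and 4.59 in wild-type samples. Col1a1, the other chain of the same protein, was detected on 1 wild-type array, and Col3a1 on 0 arrays.

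The other collagens comprised 22 genes and 48 probes, of which 12 genes and 18 probes were tested. Col17a1 probe ILMN_1240481 had 6.89, 7.23 and 6.96 on the knockout arrays, against 8.06, 8.57 and 8.13 on the wild-type arrays. The groups were fully apart. The means were 7.03 ± 0.178 in knockout and 8.25 ± 0.277 in wild-type samples (SD, n = 3 each), a change of -1.23 (SE 0.199, 95% interval -1.68 to -0.78, adjusted p = 0.0133) to 42.7% of the wild-type signal. The other 2 tested Col17a1 probes did not pass. Probe ILMN_1216228 had 6.08, 6.04 and 5.75 in knockout samples, against 6.82, 7.38 and 6.58 in wild-type samples, without overlap, with a change of -0.97 (SE 0.232, adjusted p = 0.0885). Probe ILMN_2879995 overlapped, at 6.96, 6.80 and 7.12 in knockout samples and 7.50, 7.64 and 6.66 in wild-type samples, with a change of -0.30 (SE 0.263, adjusted p = 0.701).

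The Col17a1 call depended on the processing and on single arrays. With all arrays kept, the adjusted p of ILMN_1240481 was 0.0557 after median scaling and 0.251 in the authors' table. It was 0.0935 with the title number as a replicate block. In that fit knockout replicate 1 and wild-type replicate 3 do not inform the difference between groups, since no other array shares their title number. Without knockout replicate 1 the change was -1.16 (adjusted p = 0.0899), without knockout replicate 3 it was -1.21 (adjusted p = 0.0725), and without wild-type replicate 2 it was -1.06 (adjusted p = 0.0655). Without wild-type replicate 3, ILMN_1216228 passed with an adjusted p of 0.0395. The direction was the same each time, and only the test's side of the threshold moved.

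Col26a1 had the largest change among the tested collagen probes as reported, although Col18a1 probe ILMN_2735184 changed more without background correction (-1.53 against -1.39) and with an offset of 50 (-1.55 against -1.52). Col26a1 encodes a secreted matrix protein with short collagen stretches and a cysteine-rich EMI domain. Probe ILMN_1247358 had 5.87, 6.21 and 5.64 on the knockout arrays, against 8.07, 7.94 and 7.64 on the wild-type arrays. The groups did not overlap. The means were 5.91 ± 0.289 in knockout and 7.88 ± 0.223 in wild-type samples (SD, n = 3 each), and the change was -1.98 (SE 0.208, 95% interval -2.45 to -1.50, adjusted p = 0.00116), so that knockout samples held 25.4% of the wild-type signal. The authors' deposited intensities before correction were 93.8, 115.2 and 109.6 in knockout samples, against 287.6, 311 and 252.2 in wild-type samples. The other 2 Col26a1 probes were not detected, so the change rests on 1 probe. It passed in all 17 alternatives run, with adjusted p values of 0.000228 to 0.022 and its smallest change, -1.39, without background correction.

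Collagen IX and its relatives coat fibrils, and collagen IX covers the collagen II fibrils of the vitreous. Probe ILMN_2439360 of Col9a1 had 6.84, 6.78 and 6.18 on the knockout arrays, against 7.46, 7.27 and 7.85 on the wild-type arrays, with a change of -0.93 (SE 0.238, adjusted p = 0.113). Col9a2 had 7.65, 7.33 and 7.80 in knockout samples, against 8.23, 8.40 and 8.0 in wild-type samples, with a change of -0.62 (SE 0.195, adjusted p = 0.235). Neither passed, although for both the knockout arrays were all below the wild-type arrays, as they were for the second Col9a1 probe (change -0.65, adjusted p = 0.266). Col16a1, also a fibril-associated collagen, had an opposite sign, with a change of 0.60 (SE 0.256, adjusted p = 0.404), and Col22a1, known from tissue junctions, changed by -0.01 (adjusted p = 0.995).

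Of the 32 tested probes, 9 had a higher mean in knockout samples, and the largest of these changes, 0.73, was that of a Col6a1 and of a Col7a1 probe. Collagen VI forms the beaded microfibrils between cells and fibrils. Its gene Col6a1 was read by ILMN_1259388 at 8.93, 8.73 and 8.81 on the knockout arrays, against 8.35, 8.33 and 7.60 on the wild-type arrays. This is the 1 collagen probe on which every knockout array was above every wild-type array, and its change of 0.73 (SE 0.229) did not pass, with an adjusted p of 0.231. The other Col6a1 probe overlapped, with a change of 0.28 and an adjusted p of 0.653. Col6a2, which supplies another chain of the same protein, changed by -0.27 (adjusted p = 0.578). Col7a1, the collagen of the anchoring fibrils under epithelia, had 8.08, 8.24 and 7.51 in knockout samples, against 7.27, 7.55 and 6.83 in wild-type samples, with a change of 0.73 (SE 0.255, adjusted p = 0.297). Its groups overlapped.

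The remaining tested collagens did not pass. Collagen VIII makes the network of Descemet's membrane behind the cornea and lies in vessel walls. Its gene Col8a1 changed by -0.23 and 0.01 on its 2 probes (adjusted p = 0.848 and 0.994), and Col8a2 changed by -0.51 (adjusted p = 0.467). Col23a1, a membrane-spanning collagen, changed by 0.15 and -0.42 on its 2 probes (adjusted p = 0.779 and 0.763). Of the 8 genes with more than 1 tested probe, Col8a1 and Col23a1 were those whose probes had opposite signs. Probes of a gene differed by at most 0.92, in Col17a1.

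The 59 untested probes were dim, with values between 4.15 and 5.36 over all arrays. Of these, 44 were detected on 0 arrays, 9 on 1 and 6 on 2. The 19 genes without a tested probe include Col11a1 and Col11a2, which form collagen XI of vitreous and cartilage, Col9a3, and the transmembrane Col13a1 and Col25a1. Nothing can be read from them about a difference. RefSeq also lists Col6a3, Col12a1 and Col20a1, which were not analysed here.

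Several collagen genes sit next to each other in the genome. Col4a1 and Col4a2 on chromosome 8, Col4a3 and Col4a4 on chromosome 1, and Col4a5 and Col4a6 on chromosome X are neighbours with 0 protein-coding genes between them. The changes of the brightest probes were 0.18 and -0.18 in the first of these pairs, 0.10 and -0.19 in the second, and -0.97 and -0.62 in the third. None of these passed, and the last value is that of Col4a6, which was not well above background on any knockout array. Col18a1 and Col6a1 both lie on chromosome 10 with 2 protein-coding genes between them, and their brightest probes changed by -1.59 and 0.28. Col17a1 shares chromosome 19 with Vldlr, at a distance of 224 protein-coding genes.

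Genes that work with collagens were taken by their brightest tested probe, and their counts stand beside 1.53% of all tested probes that fell and 0.653% that rose. Of 21 tested genes for chain processing, folding and cross-linking, 1 fell and 0 rose, and the list's median change was -0.05, beside 0.03 over all tested probes. Loxl1, a lysyl oxidase relative that cross-links elastin, had 8.04, 8.11 and 8.21 on the knockout arrays, against 8.96, 9.05 and 8.95 on the wild-type arrays. It fell by 0.86 (SE 0.157, adjusted p = 0.0247) with no overlap. Pcolce2 enhances the cutting of procollagen ends. It had 7.16, 6.88 and 6.89 in knockout samples, against 5.71, 5.58 and 6.40 in wild-type samples, with a change of 1.08 (adjusted p = 0.0616) on 1 probe and 0.93 (adjusted p = 0.0521) on the other. Colgalt2, which adds sugars to collagen, and Crtap, a subunit of a complex that modifies prolines, changed by -0.59 (adjusted p = 0.279) and -0.48 (adjusted p = 0.283).

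Of 16 tested partners of collagens in the basement membrane, 1 fell and 0 rose, with a median change of -0.18. Fbln1, fibulin-1, a glycoprotein of basement membranes and elastic fibres, had 6.67, 6.67 and 6.29 on the knockout arrays, against 8.76, 9.01 and 8.67 on the wild-type arrays. It fell by 2.27 (SE 0.187, adjusted p = 0.00028), with groups far apart. On further probes it changed by -2.60 (adjusted p = 0.000146) and -2.56 (adjusted p = 0.000226), and a last tested probe, which also passed, was not well above background on any knockout array. Fbln2, a related fibulin, changed by -0.90 (adjusted p = 0.0789), the laminin linker Nid2 by -0.61 (adjusted p = 0.282) and the calcium-binding Smoc1 by 0.53 (adjusted p = 0.471). Sparc binds collagens. Its 3 probes disagreed, with changes of -0.04 (adjusted p = 0.961) and 0.33 (adjusted p = 0.656) on probes at a mean of 11.65 in knockout samples, and one of -1.94 (adjusted p = 0.00207) on a probe at 4.98.

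Of 8 tested genes for collagen receptors, other integrin chains and hemidesmosome parts, 1 fell and 1 rose, with a median change of 0.01. Ddr1 is a receptor tyrosine kinase that collagens activate. It had 8.47, 8.48 and 8.60 on the knockout arrays, against 10.15, 10.95 and 10.40 on the wild-type arrays. It fell by 1.99 (SE 0.221, adjusted p = 0.00154), while its other, dimmer probe changed by -0.19 (adjusted p = 0.692). Itgb4 is the integrin chain that sits with collagen XVII in hemidesmosomes. It had 6.47, 6.42 and 6.15 on the knockout arrays, against 4.87, 4.93 and 4.84 on the wild-type arrays, where it was detected on 2 of 3. It rose by 1.47 (SE 0.167, adjusted p = 0.00172) on this probe, opposite in direction to Col17a1, and its other probe changed by 0.32 (adjusted p = 0.643). The integrin chains Itga11 and Itga3 changed by -0.43 and -0.29 and did not pass.

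Of 12 tested genes for collagen-cutting proteases and their inhibitors, 1 rose and 0 fell, with a median change of 0.14. Ctsl encodes the lysosomal protease cathepsin L, known to release endostatin from collagen XVIII. It had 6.89, 6.50 and 6.14 on the knockout arrays, against 4.67, 4.47 and 4.84 on the wild-type arrays, where it was detected on 1 of 3. It rose by 1.84 (SE 0.223, adjusted p = 0.00238) with no overlap. The inhibitor Timp2 changed by -0.44 (adjusted p = 0.469) and the protease Ctsb by 0.41 (adjusted p = 0.499).

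Markers of tissues that border the retina were read on the same arrays, because these tissues make many collagens. Of the 5 tested markers of ciliary body, iris and trabecular meshwork, 4 fell, against 1.53% of all tested probes. This list, like the other gene lists, was chosen with earlier results of these data known, so its counts describe it and do not test it. Otx1, a transcription factor of the developing ciliary body, had 5.75, 5.55 and 5.80 on the knockout arrays, against 9.01, 8.76 and 8.59 on the wild-type arrays (change -3.09, adjusted p = 4.2e-05). Optc, opticin, a protein that the ciliary epithelium secretes onto vitreous collagen, had 4.81, 4.82 and 4.76 in knockout samples, against 7.74, 7.75 and 7.72 in wild-type samples (change -2.94, adjusted p = 2.5e-05). These falls were larger than that of any tested collagen probe, and their groups lay far apart. Wfdc1 fell by 1.06 (adjusted p = 0.0236) and Msx1 by 1.01 (adjusted p = 0.0416), while Aqp1 changed by 0.45 (adjusted p = 0.398). The list's summed intensity, of which Aqp1 is the main part, was 1848 to 2447 on the knockout arrays and 2139 to 2969 on the wild-type arrays. No marker of the list was at background on every array, and Optc and Msx1 were detected on 2 of 3 knockout arrays. The 4 markers that fell were lower in the same samples as Col18a1, Col17a1 and Col26a1. On the brightest Aqp1 probe every knockout array was above every wild-type array, as for 9.28% of all tested probes. The other Aqp1 probes changed by -0.10 and -0.07. The part of these tissues in the collagen results was not tested.

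**Figure D3:**
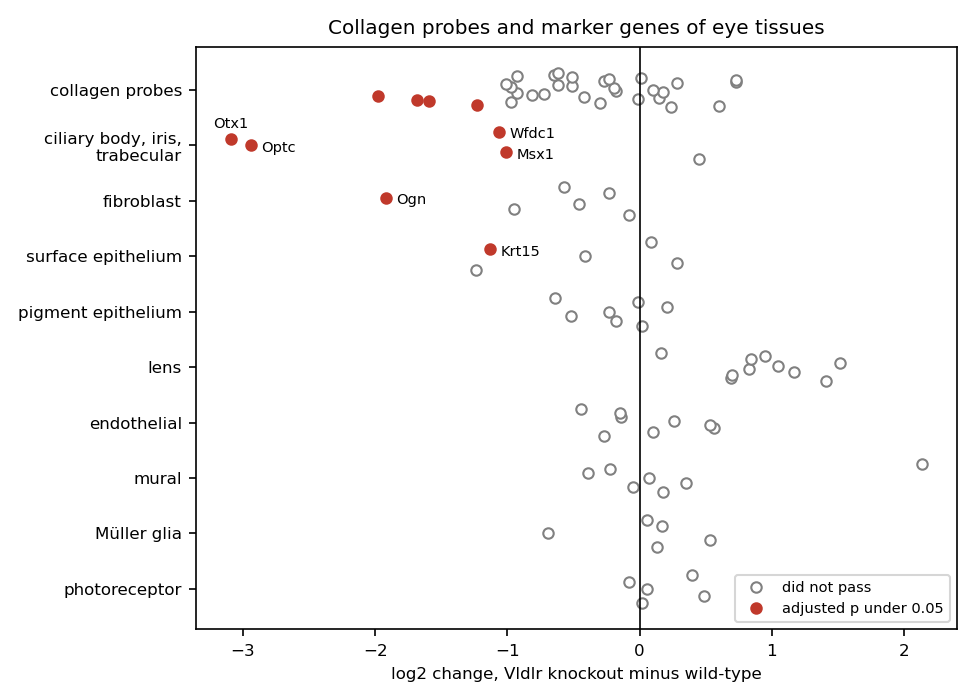
Log2 change, knockout minus wild-type (horizontal axis), of the tested collagen probes in the top row and of the tested marker genes of 9 eye tissues and cell types in the rows below, 1 point per probe or gene, filled where the adjusted p was under 0.05. Otx1 and Optc lie near -3, to the left of all collagen probes, and the endothelial, mural, Müller glia and photoreceptor rows hold 0 filled points.

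Fibroblast markers, which stand for sclera and choroid, had lower knockout values on all 6 tested genes, beside 9195 of the 19921 tested probes. Fmod, among the 6, was detected on 0 knockout and 3 wild-type arrays, so it was tested only because of the wild-type group. The median change of the 6 was -0.51, and 1 of them passed. Ogn, osteoglycin, fell by 1.92 (adjusted p = 0.00142), at 5.32, 5.0 and 5.18 on the knockout arrays and 7.37, 7.16 and 6.72 on the wild-type arrays. The summed intensity of the 10 markers was 1047 to 1427 on the knockout arrays and 1596 to 2109 on the wild-type arrays. Of the untested markers, Lum, Dpt and Postn were detected on 0 arrays. Igfbp6 was detected on 2 knockout and 0 wild-type arrays, with means of 4.79 and 4.62. Surface epithelium, where collagens VII and XVII anchor the cells, had a median change of -0.41 over 5 tested markers. The keratin Krt15 fell (change -1.13, adjusted p = 0.0357), while Aldh3a1 (-1.24), Krt14 (-0.41), Krt12 (0.28) and Trp63 (0.09) did not pass, and Krt17 was detected on 0 arrays. The list's summed intensity was 116 to 366 on the knockout arrays, against 203, 1294 and 123 on wild-type replicates 1, 2 and 3. Wild-type replicate 2 thus stood apart, and each tested Col17a1 probe was brightest on it. The Col17a1 call was lost without it (change -1.06, adjusted p = 0.0655, limma), as it was without knockout replicate 1 (0.0899) or 3 (0.0725). Wild-type replicate 3, with a sum of 123, read 8.13 on ILMN_1240481, against 6.89 on knockout replicate 1, with a sum of 116. The same arrays read 6.58 and 6.08 on ILMN_1216228, but 6.66 and 6.96 on ILMN_2879995, where the order was reversed. The part of either tissue in the collagen results was not tested.

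The other marker lists had no member past the threshold. Pigment epithelium had a median change of -0.18 over 7 tested genes and lens one of 0.89 over 10. Lens markers were brightest on knockout replicate 1, where their summed intensity was 34283, while the other knockout arrays read 1941 and 2802 and the wild-type arrays 705 to 5335. The medians were -0.02 for endothelial cells over 8 tested genes, 0.07 for mural cells over 7, 0.13 for Müller glia over 5 and 0.06 for photoreceptors over 5. Without knockout replicate 1, both Col18a1 probes and Col26a1 still passed.

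**Figure D4:**
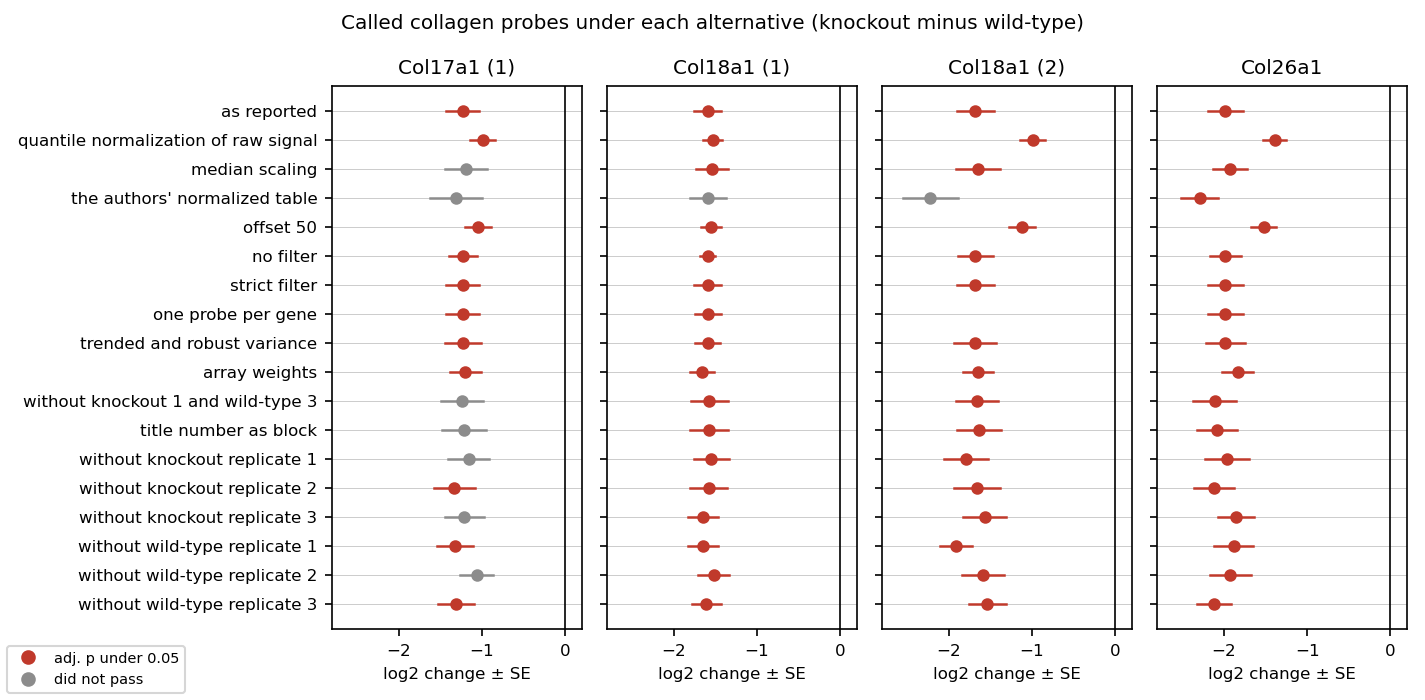
Log2 change, knockout minus wild-type (horizontal axis), of the 4 collagen probes that fell, under the analysis as reported and each alternative (rows), with lines for ± SE and red where the adjusted p was under 0.05. All points lie between -2.29 and -0.99, and grey points are 7 for Col17a1, 1 for each Col18a1 probe and 0 for Col26a1. The row of 1 probe per gene has no point for the second Col18a1 probe.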

How the data were processed

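Retinal total RNA from 3 Vldlr knockout and 3 wild-type samples was labelled with biotin and hybridised to 1-colour Illumina BeadChips, per the labels' protocols. The arrays were read with GenomeStudio, per the submitters' processing notes, and the sources used here give no version of it. The authors deposited linear intensity values that were not normalized and a detection p-value for each probe and array, per the file headers. Their table named as normalized equals these intensities minus 1 constant per array (57.2 to 69.1), without scaling between arrays.

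Intensities were processed with neqc of limma 3.58.1 (R 4.3.3), which corrects background by negative controls that it derives from the detection p-values, adds 16, quantile-normalizes and takes log2. This compresses changes of dim probes. Probes with detection p under 0.05 on at least 3 of 6 arrays were each tested 2-sided for the difference between groups (lmFit, eBayes). P-values were adjusted by Benjamini-Hochberg over the 19921 tested probes, with a threshold of 0.05. The procedure was tested on simulated data. Symbols came from the platform's annotation, and the entrez identifiers of all 91 collagen probes matched RefSeq.

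The members and the gene lists were chosen with earlier results of these data known. The text names Col18a1 and Col17a1, each collagen past the threshold, the 4 further genes per class with the smallest p and the 2 brightest, and, of each partner list, the genes past the threshold and up to 3 further ones. Other tested collagens were added so that all are accounted for, and Sparc, chosen after its values were seen, because its probes disagree. Partner and marker genes are represented by their brightest tested probe. Alternatives were quantile normalization without background correction, median scaling, the authors' table, an offset of 50, no filter or a stricter one, 1 probe per gene, a trended and robust variance, array weights, left-out arrays and a replicate block.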

Additional observations from a re-analysis of the deposited data

How the results depend on the processing

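Precision is set by 3 arrays per group, and probes near background have compressed changes. For the 18 collagen probes refitted under the alternatives, the sign of the change was the same in each that could be fitted. Over all probes 435 passed as reported, against 223 with the authors' table, 920 with array weights, 282 with the replicate block, 212 without knockout replicate 1 and wild-type replicate 3 together, and 202 to 382 when 1 array was left out (237, 226 and 270 without knockout replicates 1, 2 and 3, and 268, 202 and 382 without wild-type replicates 1, 2 and 3). The share of calls that were higher was 29.9% as reported, 41.1% with array weights, 19.8% without the 2 arrays together, 19.1% with the replicate block, and 16.9% and 14.6% without knockout replicates 1 and 2.

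As reported, 4 collagen probes fell. The number was 2 with the authors' table (1 of the 4, Col26a1, and a Col4a5 probe), 12 with array weights, 8 at an adjusted p under 0.10, and 3 to 7 when 1 array was left out, with 7 without wild-type replicate 3. Collagen probes that rose numbered 0 in every alternative, and 3 of 32 (9.38%) were higher at an unadjusted p under 0.05, against 5.68% of all tested probes. With the authors' table the Col18a1 changes were -1.59 (adjusted p = 0.0551) and -2.22 (0.0767). The Col17a1 probe that fell lost its call at -1.19 with median scaling (0.0557), -1.31 with the authors' table (0.251), -1.24 without the 2 arrays together (0.0755) and -1.22 with the replicate block (0.0935), and ranged from -1.33 to -1.06 when 1 array was left out. The cause was not tested. Col26a1 passed in 17 of 17 alternatives, the Col18a1 probes in 16 of 17 and 15 of 16, and Col17a1 in 10 of 17. Of collagens that did not pass as reported, Col4a5 passed in 7 alternatives, Col5a1 in 3, Col2a1 and Col17a1 probe ILMN_1216228 in 2 each, and Col9a2 in 1.

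The replicate block used the numbers 4 and 5 that both groups carry in their titles. Knockout replicate 1 and wild-type replicate 3 carry numbers that occur once, so they do not inform the difference between groups in that fit. It therefore comes close to the alternative that leaves both out. Samples with the same number did not deviate together (correlations of -0.0172 and -0.275). Knockout and wild-type arrays of the same replicate order did, with correlations of 0.276, 0.314 and 0.365, against -0.275 to 0.0912 for the other combinations. The fit had no term for this order, and what it reflects was not tested.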
